A study of Mus musculus with 2 samples.

Results

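Mural cells wrap the blood vessels of the kidney. They comprise the smooth muscle of arteries and arterioles, the pericytes of capillaries and the renin cells at the mouth of the glomerulus. In droplet single-cell RNA data of 2 injured mouse kidney preparations they were selected on measured values, as cells with at least 3 unique molecular identifiers (UMIs, counted molecules) summed over Rgs5, Myh11 and Ren1. Cells with any UMI of Cdh5 (endothelium), Ptprc (leukocytes) or Slc12a1 (thick ascending limb) were left out. The selection gave 507 members of 19478 kept cells, 228 of 9452 in the control library and 279 of 10026 in the haplodeficient library. Because the UMIs of those genes chose the members and their states, their levels below are a description and support nothing.

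The control library came from mice labelled Cre-, and the haplodeficient library from mice labelled Cdh5-CreERT2; Phd3f/+, in which an inducible Cre driven by the endothelial Cdh5 promoter acts on 1 floxed copy of Phd3 (gene Egln3). Both groups had the artery of 1 kidney clamped and released, received 4 tamoxifen injections and were examined on day 14. PHD3 is an oxygen-dependent prolyl hydroxylase, and the study asked how its partial loss in endothelium bears on repair of the kidney. There was 1 library per group, the number of animals in each was not given in the labels, and no difference below has a replicate check. Ranges in parentheses after a share or a level are exact 95% bounds, which reflect how many molecules or cells were counted and nothing else. The labels do not say which Phd3 alleles the Cre- mice had.

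As background, contraction of smooth muscle rests on smooth muscle myosin (Myh11) sliding along smooth muscle actin (Acta2), and its genes are switched on by serum response factor with its partner myocardin (Myocd) at CArG boxes. Pericytes share the receptors Pdgfrb and Notch3 with smooth muscle and are known for the potassium channel subunits Kcnj8 and Abcc9. Renin cells are modified smooth muscle that stores and secretes renin (Ren1), the enzyme that starts the angiotensin cascade. Smooth muscle can enter and leave the renin state. After kidney injury, pericytes are a much studied source of matrix.

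The libraries held 134190236 UMIs (control) and 114668145 UMIs (haplodeficient), with medians of 9160 and 5861.5 UMIs per kept cell and 10.2% and 2.72% mitochondrial UMIs. Members were shallower, at medians of 3637.5 and 4537 UMIs. RNA outside cells differed between the libraries: in barcodes of 1 to 100 UMIs, 7 proximal tubule markers summed to 14548 CPM (a gene's UMIs scaled to a common total) in control and 1017 CPM in haplodeficient, and 7 leukocyte markers to 1773 and 8023 CPM. The labels put both libraries in batch 1. The kept cells of the libraries shared 28 barcodes and the members shared none (0). The targeted gene gave 12 control and 8 haplodeficient UMIs of Egln3 in members, 6.50 and 4.40 CPM. Members carry no Cdh5 UMI by rule, and 3′-end tags need not cover the floxed part, so these values check nothing.

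Members made up 2.41% (2.11 to 2.74) of control and 2.78% (2.47 to 3.12) of haplodeficient kept cells, a difference of 0.371 percentage points (-0.0777 to 0.818). After thinning every cell to 1000 UMIs the difference was 0.560 points (0.136 to 0.981). The exclusion genes removed 128 control and 196 haplodeficient cells that had enough UMIs of the mural genes, of which 85 and 135 carried Cdh5. Members held 59.2% and 57.0% of the Rgs5 UMIs of all kept cells, 71.0% and 64.6% of those of Myh11, and 71.6% and 66.9% of those of Ren1. Cells with 2 mural UMIs, just outside the threshold, numbered 29 and 22, of which 3 and 8 carried Acta2. Cells with 3, just inside, numbered 13 and 14, of which 5 and 10 carried Acta2. The median member had 19 and 23.

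The label was checked on genes that the selection did not use. The 10 genes that led members over all other kept cells, by the lower of the 2 libraries, were Tpm2 (tropomyosin), Myl9 (myosin light chain), Mustn1, Acta2, Pln (phospholamban, a brake on the calcium pump), Dgkb, Gm13889, Kcnab1 (a potassium channel subunit), Ctnna3 and Olfr1033. Tpm2 stood at 1382 CPM (1329 to 1437) in control members and 10.8 CPM in other control cells, and at 2803 CPM (2727 to 2881) and 31.4 CPM in the haplodeficient library. Acta2 stood at 3393 and 25.5 CPM in control and at 7279 and 124 CPM in haplodeficient. A gene is called higher or lower here when its log2 ratio of CPM, after adding 5 to each, is at least 1 in size and the 95% intervals do not overlap, and a call between cell sets needs both libraries. By that rule 6.83% of 3194 genes were higher in members than in other kept cells and 3.88% were lower. All 20 eligible genes of the contractile apparatus were higher, as were 7 of 7 of the pericyte list and 5 of 6 of the mesangial list. So were 8 of 10 vasoactive receptors and channels and 8 of 13 matrix genes. The class II antigen genes H2-Aa, H2-Ab1 and H2-Eb1 were lower. The rule leaves out Ptprc-positive cells from members but not from the other kept cells, so nothing is read from that. A gene near 0 in other cells is eligible only where members are high, so these counts are fixed in part. Of the pericyte list 7 of 27 genes were eligible. At least 1 UMI of 7 mesangial markers was seen in 189 of 228 control and 266 of 279 haplodeficient members. Whether mesangial cells are among the members was not tested.

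Fibroblasts are the stromal neighbours of mural cells, so 110 control and 123 haplodeficient cells with at least 3 UMIs of Pdgfra, Dcn and Lum, no UMI of the exclusion genes and fewer than 3 mural UMIs were set beside the members. Of 3400 eligible genes 4.41% were higher in members and 6.5% lower in both libraries. Of the contractile apparatus 17 of 21 were higher. Of the matrix list 18 of 24 were lower in members, among them Dcn, on which the fibroblasts were selected. Col3a1, a fibrillar collagen, had log2 ratios of -2.84 (control) and -3.20 (haplodeficient) and Col1a1 had -2.94 and -3.41. The matrix gene above the fibroblast level was Ccn1, a matricellular signal, at 1.01 and 1.03. Notch3 was higher at 3.06 and 3.70. Of the antigen presentation list 4 of 9 were higher in members than in fibroblasts (H2-Aa, H2-Ab1, H2-Eb1 and Cd74) and 0 lower. Cd74 was seen in 75 of 228 control and 57 of 279 haplodeficient members.

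Members fell into 3 states by the same genes. Renin cells had more Ren1 than Rgs5 and Myh11 together, and those with at least 10 Ren1 UMIs were kept apart from those with fewer. Of the rest, contractile cells had at least 2 Myh11 UMIs, and cells with 0 or 1 Myh11 UMI formed the state that the rule calls pericyte. Because markers of another cell type led that last state (below), it is called low-Myh11 here.

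**Figure D1:**
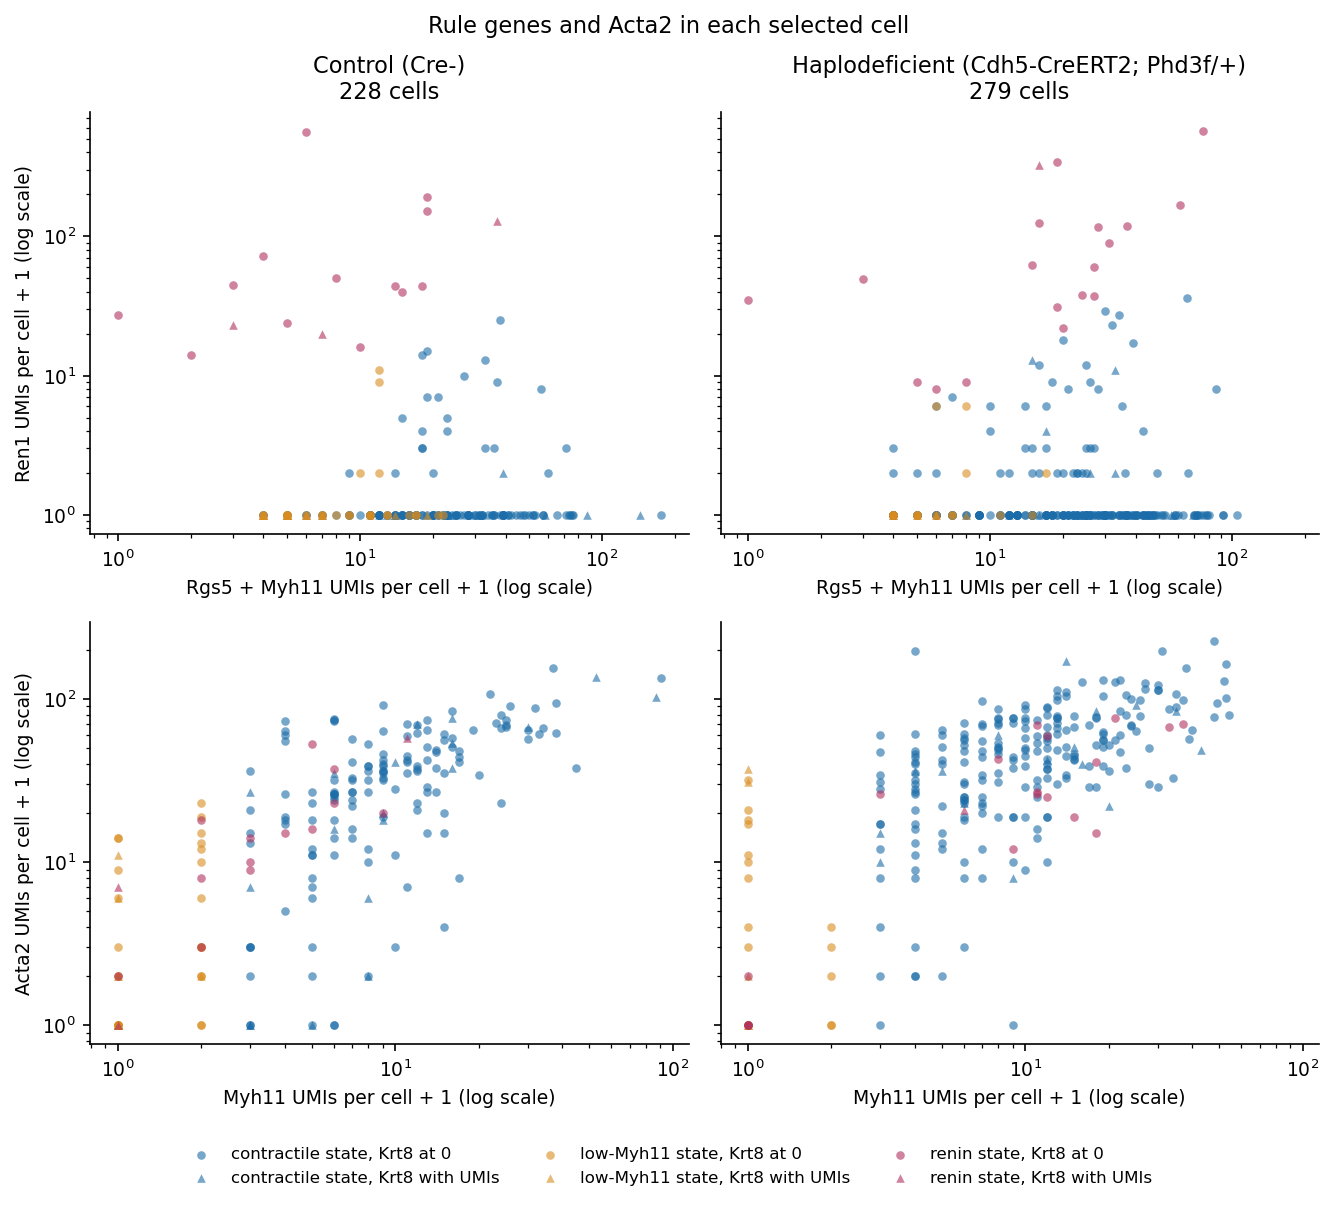
UMIs per member cell of Ren1 against Rgs5 plus Myh11 (top) and of Acta2 against Myh11 (bottom), on log axes after adding 1, for the control (left) and haplodeficient (right) libraries. Color gives the state and triangles mark cells with Krt8 UMIs. Acta2, which did not define the states, is high along the Myh11 axis, and most low-Myh11 cells have few Acta2 UMIs.

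The contractile state held 158 control cells, 69.3% (62.9 to 75.2) of members, and 236 haplodeficient cells, 84.6% (79.8 to 88.6). Acta2, which the state rule did not use, was seen in 150 of 158 and 234 of 236 cells, with medians of 32.5 and 47 UMIs per cell. Thinned to 1000 UMIs, Acta2 was seen in 91.0% and 96.1% of contractile cells against 0.853% and 1.84% of Ptprc-positive cells, whose median depth was 6991 and 4750 UMIs against 3491 and 4557. The low-Myh11 state held 54 (23.7%, 18.3 to 29.7) and 24 cells (8.60%, 5.59 to 12.5), and the renin state 16 (7.02%) and 16 cells (5.73%), beside 0 and 3 renin cells below 10 Ren1 UMIs. The contractile share differed by 15.3 percentage points (7.96 to 22.6) and the low-Myh11 share by -15.1 points (-21.6 to -8.71), haplodeficient minus control. The renin share differed by -1.28 points (-5.90 to 3.01).

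These differences in share moved with thinning and with tubule markers. Cells of 1 or 2 Myh11 UMIs, next to the cut, numbered 14 and 15 (contractile and low-Myh11) in control and 14 and 5 in haplodeficient. Thinned to 1000 UMIs, the contractile share differed by 1.94 points (-7.57 to 11.5) and the low-Myh11 share by -1.90 points (-11.0 to 6.96). No difference in state shares was thus detectable at that depth. Members and states were both redrawn from the thinned counts. Unthinned contractile cells had medians of 8 and 9 Myh11 UMIs, so thinning can carry them across the cut of 2 and blur the states. Whether depth made the difference was not tested.

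The low-Myh11 state went against its label. In control 28 of its 54 cells carried UMIs of Krt8, an epithelial keratin, and in haplodeficient 7 of 24, a split that was chosen after the values were seen. Another 19 control and 16 haplodeficient contractile cells carried Krt8, and 16 of 19 and 16 of 16 of those held Acta2. The Krt8-positive cells were deep, at medians of 23974 and 40930 UMIs, and rich in Spp1 (osteopontin, high in injured tubules), at a median of 766.5 UMIs per cell in control (73 to 3419) and 1469 in haplodeficient (21 to 2461). Havcr1, which encodes the tubule injury marker KIM-1, was seen in 23 of 28 and 5 of 7 of them. Their mural signal was Rgs5 at 3 to 18 and 3 to 7 UMIs. Myh11, which the state rule holds at 0 or 1 UMI, was seen in 1 of 28 and 0 of 7. Acta2 was seen in 5 of 28 and 3 of 7. Summed, Spp1 came to 36977 and 36381 CPM, C3 (a complement component) to 2186 and 1403 CPM and Vcam1 (a leukocyte adhesion receptor) to 1213 and 1455 CPM.

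Tubule cells outside the members offered a comparison for that Rgs5 signal. The 737 control and 326 haplodeficient cells with Krt8 and Havcr1 that were not members held Rgs5 at 4.62 CPM (3.62 to 5.81) and 1.89 CPM (1.01 to 3.23), and Myh11 at 0.697 and 0.581 CPM. In RNA outside cells the UMIs of Rgs5 and Myh11 stood at 188 and 162 in control and at 243 and 214 in haplodeficient. The Krt8-positive low-Myh11 cells held 186 and 124 CPM of Rgs5 and 1.33 and 0 CPM of Myh11. Their state allows at most 1 Myh11 UMI per cell, so this imbalance was set in advance and nothing is read from it. A minimum of 3 UMIs selects high cells from any population, and the tubule cells outside the members lay below it by rule. These values are therefore fixed in part. Whether these cells are tubule cells with Rgs5 or droplets that hold more than 1 cell was not tested. A doublet caller marked 26 control and 21 haplodeficient members of all states.

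**Figure D2:**
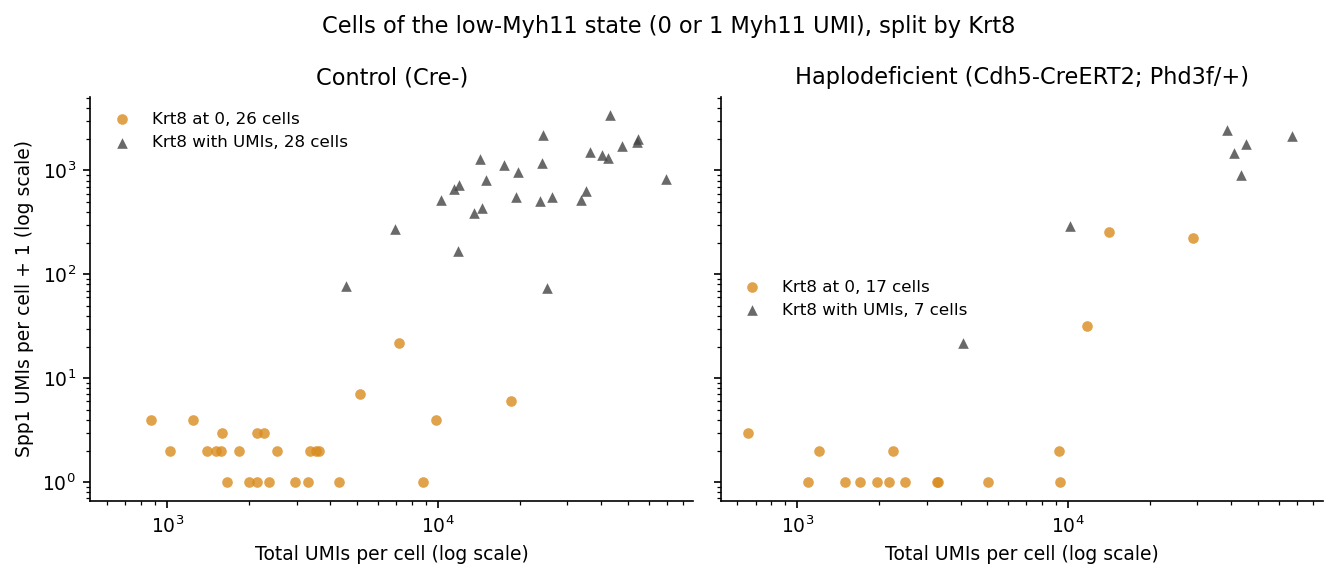
Spp1 UMIs plus 1 against total UMIs per cell (log axes) in low-Myh11 cells, circles for cells with 0 Krt8 UMIs and triangles for cells with Krt8. The 28 control and 7 haplodeficient Krt8-positive cells lie at high depth and high Spp1, and most of the 26 and 17 other cells lie low on both axes.

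The 26 control and 17 haplodeficient low-Myh11 cells with 0 Krt8 UMIs were of ordinary depth, at medians of 2314 and 2497 UMIs. Of them 21 of 26 and 17 of 17 held at least 2 UMIs of mural genes other than the 3 of the rule, and 19 of 26 and 12 of 17 held Acta2. Spp1 reached 21 UMIs in a control cell and 257 UMIs in a haplodeficient cell of this set, so the split by Krt8 left in some Spp1-rich cells, whose part in the levels below was not tested. Over all members with 0 Krt8 UMIs (178 and 255), contractile cells made up 78.1% and 86.3%, a difference of 8.18 points (0.947 to 15.8), and low-Myh11 cells 14.6% and 6.67%, a difference of -7.94 points (-14.4 to -2.13). The difference without Krt8-positive cells was thus smaller than the one over all members, and both intervals excluded 0 before thinning.

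**Figure D3:**
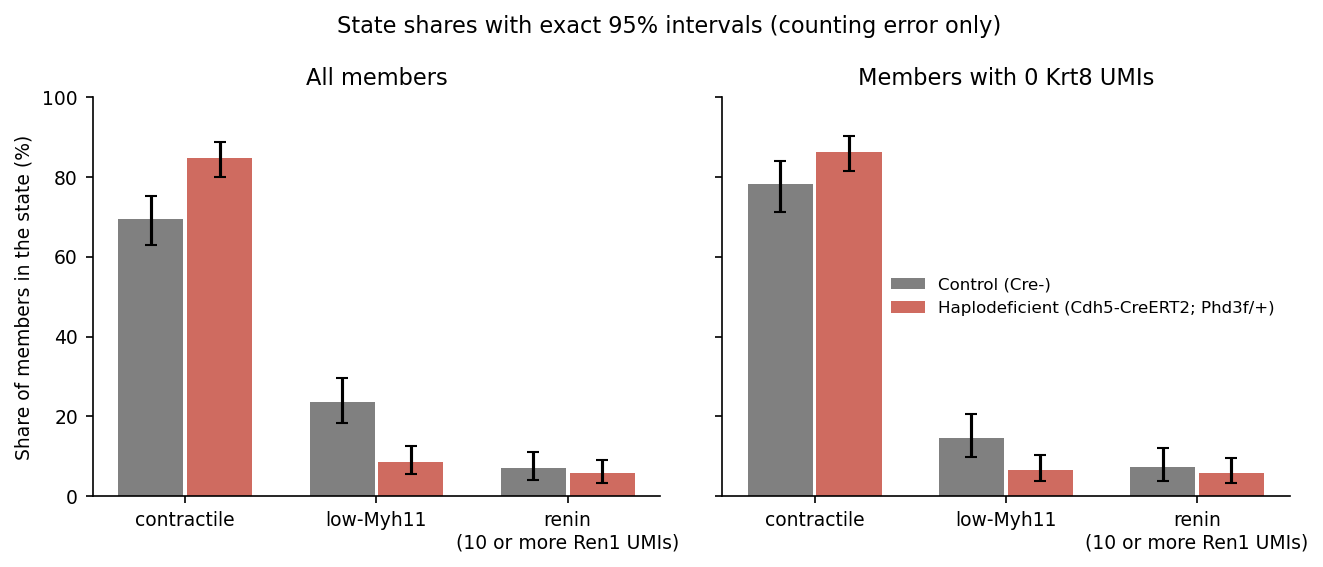
Share of members in each state (bars) with exact 95% binomial intervals, over all members (left) and over members with 0 Krt8 UMIs (right). The contractile bar is 15.3 points higher in haplodeficient on the left and 8.18 points higher on the right, and the renin bars lie within each other's intervals.

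Contractile cells were then compared with low-Myh11 cells, which shows what goes with Myh11 apart from Myh11 itself. Over all members 8.68% of 3294 genes were higher in contractile cells in both libraries and 7.35% lower. The contractile apparatus had 21 of 23 eligible genes higher, the vasoactive list 14 of 15 and the pericyte list 10 of 12, with none of those lists' genes lower (0). The 10 highest were Cnn1, Hpse2, Myocd, Ptgis, Itih4, Tpm2, Pln, Acta2, Kcnab1 and Synpo2. The 10 lowest were Ccl2, Cyp2j13, Scin, C3, Cfb, 1700016C15Rik, Aoc1, Vcam1, Stra6 and Sox9. The 5 injured tubule markers summed to 34277 and 28369 CPM in low-Myh11 cells against 7736 and 3799 CPM in contractile cells. They did not all go the same way: Havcr1 and Spp1 were lower in contractile cells, Lcn2 was higher, and Krt8 and Krt18 had no common call.

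With Krt8-positive cells left out of both states, 3.45% of 2867 genes were higher in contractile cells and 1.43% lower, and the pattern of the pericyte list was another. The contractile apparatus still had 19 of 23 genes higher, with a median log2 ratio of 1.86 in control and 2.17 in haplodeficient against 0.09 and -0.02 over all eligible genes. Of the pericyte list 1 of 17 was higher (Mcam, an adhesion molecule) and 2 were lower (Abcc9 and the angiotensin receptor gene Agtr1a). Agtr1a is also on the vasoactive and mesangial lists. Of the mesangial list 0 of 14 were higher and 2 were lower (Sept4 and Agtr1a).

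Acta2, at chr19:34241090-34255590 of GRCm38, encodes smooth muscle actin. It stood at 8708 CPM (8472 to 8950) in control contractile cells and 1467 CPM (1236 to 1730) in control low-Myh11 cells, both without Krt8. In haplodeficient the values were 10277 CPM (10091 to 10465) and 1212 CPM (1006 to 1448). The contractile level was the higher in each library and no interval of one state overlapped the other's. Tagln (chr9:45929619-45936058), which encodes transgelin, an actin-binding protein, stood at 3574 UMIs in 139 control and 8600 UMIs in 220 haplodeficient contractile cells, a log2 ratio of 2.65 over the low-Myh11 state in both libraries.

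Cnn1 (chr9:22099216-22109630) encodes calponin, a regulator of actomyosin. It had the highest ratio by the naming rule, with 198 UMIs (337 CPM) in control and 323 UMIs (285 CPM) in haplodeficient contractile cells against 1 UMI in the low-Myh11 cells of each library. Myocd, the myocardin gene, stood at 338 and 290 CPM in contractile cells and gave 3 and 2 UMIs in low-Myh11 cells. Ldb3, a Z-disc protein gene, stood at 187 and 161 CPM against 1 UMI in each library. The regulator Myocd and the apparatus were thus high in the same state.

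Receptors for nerve signals to arteries were among the higher genes. Adra1a, an alpha-1 adrenergic receptor gene, stood at 189 and 128 CPM in contractile cells and gave 3 and 0 UMIs in low-Myh11 cells. Npy1r, a neuropeptide Y receptor gene, had log2 ratios of 2.82 and 2.03. P2rx1, an ATP-gated channel gene, stood at 121 and 139 CPM in contractile cells and gave 2 and 0 UMIs in low-Myh11 cells. Cacnb2, a calcium channel subunit gene, and Olfr558, an odorant receptor gene, were also higher, which made 5 of 19 eligible genes of the vasoactive list.

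The low-Myh11 cells held 96767 and 99852 UMIs against 588168 and 1133816 in contractile cells, so the minimum of 30 UMIs keeps out genes of the low-Myh11 side more often, and the numbers called on the sides are not compared. Agtr1a (chr13:30336441-30382867), the main angiotensin II receptor of vessels, stood at 238 CPM (23 UMIs) in control and 310 CPM (31 UMIs) in haplodeficient low-Myh11 cells against 37.4 and 37.9 CPM in contractile cells. Abcc9 (chr6:142587862-142702315) stood at 186 and 100 CPM (18 and 10 UMIs) against 25.5 and 21.2 CPM. It was seen in 9 of 26 control and 4 of 17 haplodeficient low-Myh11 cells, and 5 of its 10 haplodeficient UMIs lay in 1 cell. Its channel partner Kcnj8 lay at 103 and 70.1 CPM against 6.80 and 8.82 CPM but missed the minimum for a call. Kcnj8 was seen in 6 of 26 and 3 of 17 of these low-Myh11 cells. In RNA outside cells Abcc9 was at 1.73 and 1.64 CPM and Kcnj8 at 0.157 and 1.09 CPM, far below these levels.

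Dach1, a transcriptional cofactor gene, was the lowest in contractile cells by log2 ratio, at -2.59 and -2.58. Class I antigen genes were also higher in low-Myh11 cells, namely H2-K1, H2-D1, B2m and H2-T23, 4 of 7 eligible, with B2m at -1.42 and -1.40. Of inflammatory genes Cxcl1, Vcam1 and C3 were higher there, 3 of 7. Notch3 gave no common call: its CPM was 506 in control and 130 in haplodeficient low-Myh11 cells against 350 and 425 in contractile cells. Fibroblast markers bear on these small sets of cells, since 44 of the Dcn UMIs came from 1 control cell. The endothelial marker Emcn moved the same way as Abcc9, at 279 and 130 CPM in low-Myh11 cells, log2 ratios of -2.86 and -1.69 for contractile over low-Myh11 cells, and was the 1 eligible endothelial marker of 7. The part of these markers in the contrast was not tested.

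**Figure D4:**
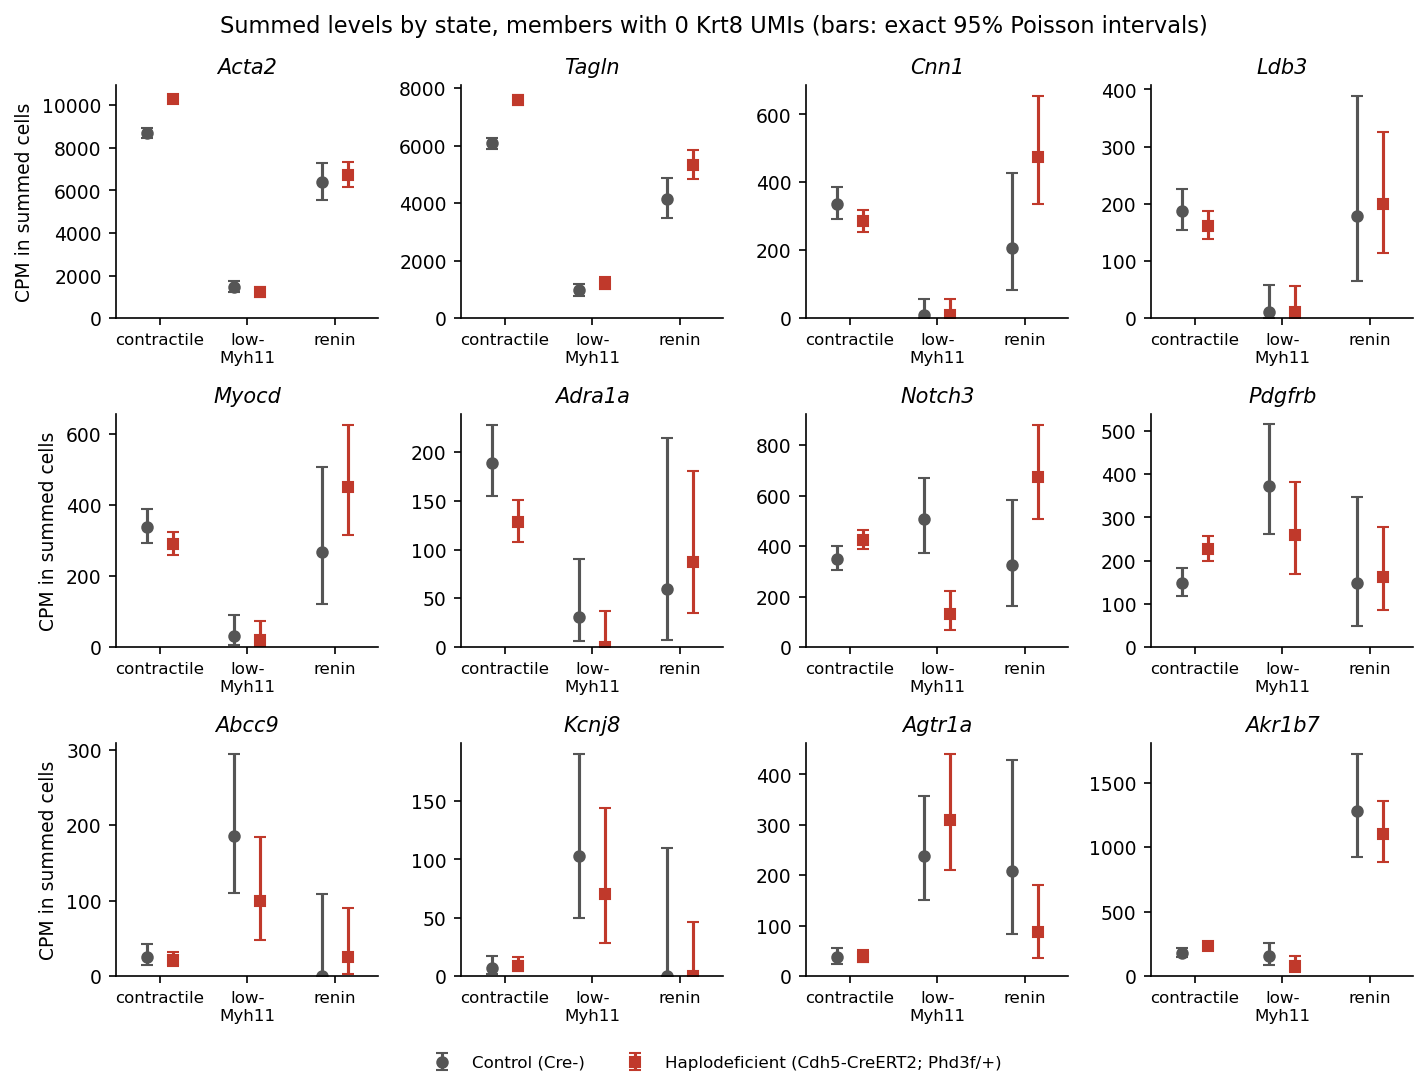
Summed CPM of 12 genes in contractile, low-Myh11 and renin cells with 0 Krt8 UMIs, circles for control and squares for haplodeficient, with exact 95% Poisson intervals on linear axes. Acta2, Tagln, Cnn1, Ldb3 and Myocd are lowest in low-Myh11 cells, Abcc9, Kcnj8 and Agtr1a are high there in both libraries, and Akr1b7 is highest in renin cells.

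CArG boxes were looked for in the promoters of these genes because the contractile list varied as a block across states. The 250 bases before the start of RefSeq transcripts (GRCm38.p6) were searched for the CArG box with at most 1 G or C among its 6 central bases, a pattern that reads the same on both strands. It was found in 8.59% of 32851 windows, and in 5 of 25 windows (20%) of the contractile apparatus list, where 21 of its 25 genes had a window. The genes were Acta2, Myl9, Ldb3 and Myl6. In the pericyte list it was found in 1 of 21 windows in the renin cell list in 2 of 39 and in the matrix list in 4 of 27 (14.8%). A match describes letters, not a bound site. Starts here are those of the RefSeq transcripts, and for Acta2 and Ren1 they lie inside the gene spans given in this text, which come from another annotation and begin further upstream. The sites of the 3 genes with the larger contrasts follow, read on the strand of the gene with the box in capitals.
Acta2, chr19:34255438-34255467, minus strand, 84 bases before the start: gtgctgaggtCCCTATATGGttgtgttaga
Acta2, chr19:34255388-34255417, minus strand, 34 bases before the start: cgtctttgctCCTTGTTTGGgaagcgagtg
Myl9, chr2:156775293-156775322, plus strand, 161 bases before the start: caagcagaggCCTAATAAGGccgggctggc
Myl9, chr2:156775355-156775384, plus strand, 99 bases before the start: cattcttctgCCTTGTAAGGccgggcggcc
Ldb3, chr14:34588697-34588726, minus strand, 35 bases before the start: gggttacagtCCATTTATGGgcgcagcaag

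The renin state held 16 control cells with 13 to 556 Ren1 UMIs (median 43) and 16 haplodeficient cells with 21 to 570 (median 74.5). The ranges overlapped over most of their length. In the top control cell Ren1 (chr1:133350510-133360325) took 19.0% of all 2919 UMIs. Renin cells kept smooth-muscle genes: Acta2 was seen in 15 of 16 cells of each library, and Myh11, which the state rule used, in 13 and 14. As a description, since Ren1 sets the state, 23 of 158 and 50 of 236 contractile cells had at least 1 Ren1 UMI, and the highest had 24 and 35. Thinned to 1000 UMIs, Ren1 was seen in 9.62% and 11.3% of contractile cells and in 0 of 1642 (up to 0.183%) and 0.176% of Ptprc-positive cells.

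The Ren1 promoter carries the letters TATAAA close to its start, which is shown as the core promoter of the gene that defines the state. On either strand the letters were found in 12.4% of all windows.
Ren1, chr1:133350633-133350662, plus strand, TATAAA 29 bases before the start: atacatggtgtgTATAAAagaaggctcagg

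Against all other members, 0.211% of 2845 genes were higher in renin cells in both libraries and 1.41% were lower, 6 and 40 genes. The renin cells held 108371 and 85306 UMIs of the members' 1845308 and 1817942, so the minimum of 30 UMIs admits a gene at a far lower level in the other members than in renin cells, and nothing is read from the balance of 6 and 40. The 6 were Akr1b7, Tent5a, Hopx, Cenpa, Serpini1 and Gata3. Of the mesangial list 3 of 11 eligible genes were higher (Gata3, Hopx and Akr1b7), and of the renin cell list 1 of 13 (Akr1b7, which is on both lists). Whether mesangial cells have a part in this state was not tested. The 40 included the collagen genes Col1a1, Col1a2, Col3a1 and Col4a1, fibronectin (Fn1), biglycan (Bgn), Spp1, C3, Vcam1, H2-K1 and H2-D1. None (0) of the 22 eligible contractile apparatus genes passed in either direction.

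Akr1b7 (chr6:34412334-34423142), an aldo-keto reductase gene known as a companion of renin, was the marker of the state. Without Krt8-positive cells it stood at 1277 CPM in control and 1102 CPM in haplodeficient renin cells, at 177 and 231 CPM in contractile cells and at 155 and 80.1 CPM in low-Myh11 cells. It was seen in 13 of 16 and 15 of 16 renin cells. Thinned to 1000 UMIs it was seen in 60.0% (32.3 to 83.7) and 68.8% (41.3 to 89.0) of renin cells, in 14.7% and 15.7% of contractile cells and in 0.122% and 0.151% of Ptprc-positive cells. Renin cells therefore stood above contractile cells in both libraries by intervals that did not overlap.

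The summed counts of collagen genes were low in renin cells. Col1a2 gave 0 UMIs in control and 6 UMIs in haplodeficient renin cells, against 174 and 275 CPM in other members. Col3a1 gave 1 and 0 UMIs, against 172 and 201 CPM. Per cell no such difference was detectable: Col1a1 was seen in 0 of 16 and 2 of 16 renin cells against 23 of 158 and 27 of 236 contractile cells. After thinning to 1000 UMIs, Col1a1 was seen in 0 of 15 (0 to 21.8%) and 0 of 16 (0 to 20.6%) renin cells against 5.13% and 5.22% of contractile cells. All 7 fibroblast markers were at 0 in control renin cells, and 5 of 7 in haplodeficient ones. Col4a1, a basement membrane collagen, stood at 111 and 305 CPM against 545 and 695 CPM.

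A pair of deep control cells bears on these counts. They had 34627 and 34127 UMIs with 22 and 19 Ren1 UMIs, and 1 of them held 877 UMIs of Kap, a proximal tubule gene. Without them 43 genes were higher (1.51%) and 78 lower (2.74%), of which 5 and 31 were among the first calls. With Krt8-positive cells left out on both sides (13 and 15 renin cells), 7 were higher (0.261%) and 12 lower (0.448%) of 2677. Akr1b7, Tent5a and Cenpa were higher, and Col1a1, Col1a2, Col3a1, Col4a1 and Fn1 lower, under each of these selections.

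Between the libraries, over all members, 2.33% of 3641 genes were higher in haplodeficient (85) and 6.37% lower (232). The counts were smaller in narrower sets of cells, which also hold fewer UMIs. In contractile cells the shares were 0.564% and 3.89% of 3547 genes, and in contractile cells with 0 Krt8 UMIs 0.479% (16) and 1.44% (48) of 3340. Of the first 85 and 232 calls, 5 and 29 were also called in that last set.

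The contractile apparatus shows the pattern. Over all members its median log2 ratio was 0.79 against 0.03 for all eligible genes, 23 of 23 genes lay above 0, and 6 were called higher: Acta2, Tagln, Tpm1, Tpm2, Des and Mustn1. In contractile cells the median was 0.21 with 0 of 23 called, and without Krt8-positive cells it was 0.05 against 0.05 for all genes, again with 0 of 23. Acta2 stood at 3393 and 7279 CPM over all members, at 6549 and 9058 CPM in contractile cells, and at 8708 and 10277 CPM in those with 0 Krt8 UMIs, log2 ratios of 1.10, 0.47 and 0.24. The call was thus lost within the contractile state. Acta2 was also higher in haplodeficient outside the members, at 25.5 and 124 CPM in other kept cells and 75.4 and 289 CPM in RNA outside cells. Tagln stood at 40.1 and 248 CPM in other kept cells. The part of RNA outside cells in the members' values was not tested.

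The pericyte list followed it, with medians of 0.64 (3 of 14 higher, Pdgfrb, Mcam and Gucy1a1), 0.26 and 0.06 over the same 3 sets of cells. The mesangial list gave 0.92 (4 of 12 higher, Serpine2, Sfrp2, Hopx and Igfbp5), 0.33 and 0.13. The matrix list gave 0.68 (2 of 17 higher, Fbn1 and Thbs1), 0.28 and 0.06. None (0) of these lists' genes was called in the contractile sets. Injured tubule markers, all 5 detected, summed to 19736 CPM in control members and 8336 CPM in haplodeficient members, and 57 control and 31 haplodeficient members held at least 5 UMIs of them. Their part in these list medians was not tested.

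Chemokine and inflammatory genes ran the other way. Over all members 8 of 14 were lower in haplodeficient, with a median of -1.15. Ccl2, a monocyte attractant, stood at 444 CPM in control and 70.4 CPM in haplodeficient members, C3 at 1075 and 222 CPM and Vcam1 at 613 and 259 CPM. In contractile cells with 0 Krt8 UMIs, C3 stood at 11.9 and 23.8 CPM, Vcam1 at 18.7 and 47.6 CPM and Ccl2 at 22.1 and 15.9 CPM. In RNA outside cells C3 was at 265 and 92.6 CPM, Vcam1 at 123 and 116 CPM and Ccl2 at 53.3 and 120 CPM, above those contractile cells in both libraries. The list's median there was 0.18 over 6 eligible genes, with Cxcl10 and Nfkb1 lower, and 70 of the 92 control UMIs of Cxcl10 lay in 1 cell.

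**Figure D5:**
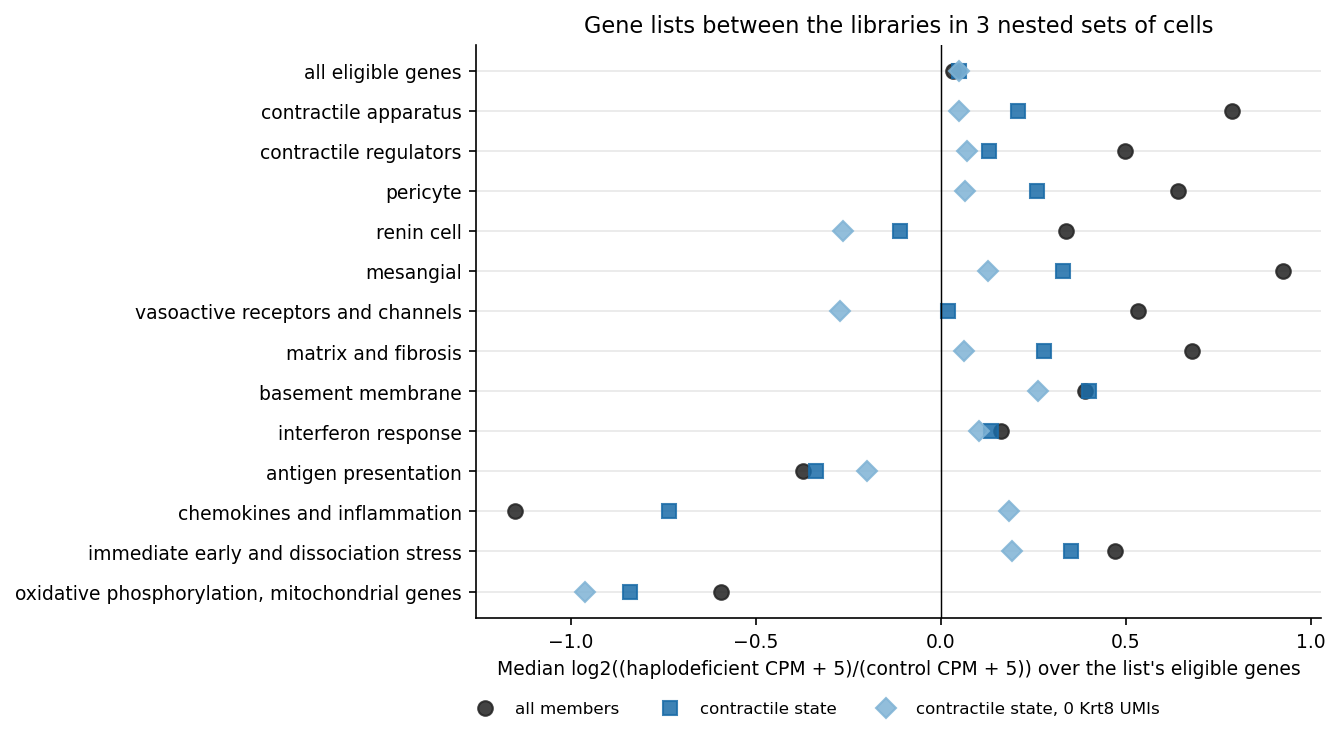
Median log2 ratio (haplodeficient over control) of each gene list over all members (circles), contractile cells (squares) and contractile cells with 0 Krt8 UMIs (diamonds). The contractile apparatus goes from 0.79 to 0.05 and the chemokine list from -1.15 to 0.18, while the mitochondrial list stays between -0.59 and -0.96.

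Mitochondrially encoded genes were lower in haplodeficient in each set, with medians of -0.59, -0.84 and -0.96 over 13 genes. In contractile cells with 0 Krt8 UMIs 4 of 13 were called: mt-Nd1, mt-Nd2, mt-Nd3 and mt-Co3. mt-Co3, a subunit of cytochrome oxidase, stood at 20159 and 7706 CPM. It also differed in RNA outside cells, at 50929 and 16499 CPM, and in other kept cells, at a log2 ratio of -2.03. The part of that RNA in the members' difference was not tested.

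Among single genes over all members, Sncg (chr14:34370274-34374789), which encodes gamma-synuclein, was second by log2 ratio and is described first because its UMIs were spread over many cells, a choice made after its values were seen. It gave 184 UMIs in 90 control members and 1163 UMIs in 225 haplodeficient members, 99.7 CPM (85.8 to 115) and 640 CPM (603 to 678). In contractile cells with 0 Krt8 UMIs it stood at 252 and 834 CPM, a log2 ratio of 1.71, with 69 of 139 and 184 of 220 cells positive. Thinned to 1000 UMIs it was seen in 17.3% (11.7 to 24.2) of contractile cells in control and 53.5% (46.8 to 60.1) in haplodeficient, and in 0.244% and 0.454% of Ptprc-positive cells. In RNA outside cells it stood at 5.19 and 22.4 CPM, and in other kept cells at 6.06 and 15.5 CPM. The log2 ratio in other kept cells was 0.89, a value that the added 5 CPM pulls toward 0 at such low levels. Sncg was thus also higher in haplodeficient outside the members. The largest single cell held 11 and 18 UMIs, so no single cell carried the difference. Unthinned, Sncg was also seen in 9 of 16 and 15 of 16 renin cells and in 5 of 54 and 10 of 24 low-Myh11 cells.

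The other 9 highest over all members were Fabp4, Mlf1, Rpl29, Ifi27l2a, Klf2, Sfrp2, Gm26532, Gm12840 and Ehbp1l1, with log2 ratios from 1.46 to 3.11. Fabp4, a fatty acid carrier gene, rested on 1 haplodeficient cell with 177 of its 205 UMIs. Rpl29, a ribosomal protein gene, had a log2 ratio of 1.82 in members and 2.12 in other kept cells. Klf2, a flow-responsive factor gene, stood at 367 and 1254 CPM in members and at a log2 ratio of 1.00 in other kept cells. Mlf1 stood at 35.2 and 139 CPM in 47 and 132 cells. In other kept cells it stood at 5.23 and 7.90 CPM, a log2 ratio of 0.33 after adding 5 CPM. In contractile cells with 0 Krt8 UMIs neither Klf2 (0.96) nor Mlf1 (0.92) reached the size rule.

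The 10 lowest were Kap, Igkc, Igha, Jchain, Cyp2e1, Ccl5, Miox, Klk1, Cyp4b1 and Ttc36, genes of tubules, plasma cells and T cells. Kap, the kidney androgen-regulated protein gene, gave 4793 and 45 UMIs, with 1829 in 1 control cell, and stood at 11105 and 547 CPM in RNA outside cells. Igkc, an antibody chain gene, gave 418 and 6 UMIs, with 233 in 1 control cell. Klk1, a kallikrein gene, gave 361 and 25 UMIs, with 325 in 1 cell. No mural gene was among them.

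Within contractile cells with 0 Krt8 UMIs the higher genes were led by Gdpd3 (chr7:126766334-126775649), a phosphodiesterase gene, at 2 UMIs in 2 control cells and 127 UMIs in 83 haplodeficient cells. Thinned to 1000 UMIs, Gdpd3 was seen in 0.641% and 9.57% of contractile cells and in 1.64% and 11.5% of Ptprc-positive cells, over all contractile cells, with intervals that overlapped in both libraries. Its share in contractile cells was thus not shown to be above that in Ptprc-positive cells. Rpl29, Ifi27l2a, Sncg, Gm26532, S100a6, Tmsb10, Siah2 and Pcp4 were also higher. Other kept cells differed likewise in S100a6 (log2 ratio 1.21 in both sets), Tmsb10 (1.51 against 1.18 in contractile cells), Ifi27l2a (2.25 against 1.88), Gm26532 (1.17 against 1.53) and Rpl29 (2.12 against 2.13). Siah2 lost its call without its largest cell, and 51 of 103 haplodeficient UMIs of Pcp4 lay in 1 cell. H2-D1, a class I antigen gene, was higher at 189 and 389 CPM, and stood at 339 and 1081 CPM in RNA outside cells. With the largest cell of each gene left out 24 were higher, 12 of them among the 16, and 22 lower, all 22 among the 48.

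Among the lower genes of that set, some went against the rest of the library. Ifitm1, an interferon-induced gene, had a log2 ratio of -1.73 there and 1.31 in other kept cells, and Iigp1, an interferon-inducible GTPase gene, -1.57 and 1.17. Ifitm1 stood at 81.6 and 21.2 CPM, and Iigp1 at 206 and 66.2 CPM. Ifitm1 was seen in 8 of 139 and 11 of 220 cells and lost its call without its largest cell, while Iigp1 kept its call. The interferon list as a whole had a median of 0.10 with 3 of 11 lower (Ifitm1, Iigp1 and Cxcl10) and 0 higher, and without the largest cell of each gene 1 of the 3 stayed called. The renin cell list and the vasoactive list had medians of -0.26 and -0.27 in this set with 0 of 18 and 0 of 21 called, so no member of either passed the size rule.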

How the data were processed

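Kidney cells were profiled with the 10x Genomics 3′ v3.1 assay in 2 libraries, 1 per group. The deposited values are UMI counts per gene and barcode, unfiltered, made by the authors with Cell Ranger 4 per the file headers, and the build mm10 is named per the submitters' processing notes. Barcodes with at least 500 UMIs, 200 detected genes and at most 50% mitochondrial UMIs were kept. Counts were summed per state and library and scaled to CPM, and log2 ratios were taken after adding 5 CPM. Genes needed a mean of at least 50 CPM and 30 UMIs over the sets compared. A gene near 0 in 1 set therefore enters only where the other set is high. A call needed a log2 ratio of at least 1 in size with no overlap of the 95% exact Poisson intervals. Bounds of a share are Clopper-Pearson, those of a difference of shares are Newcombe, and a count of 0 allows up to 3 counts. All intervals and limits cover counting error only. No test or p-value was computed, since each group has 1 library.

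The members, gene lists and states were chosen with earlier results of these data known. Named genes were the 10 highest and 10 lowest ratios past the size rule in each comparison, the members of the listed groups, and the 10 leading genes over other kept cells, and 1 gene so named is not reported here. Of 505 listed gene entries 500 matched the files. Shares of cells were also computed after thinning to 1000 UMIs per cell. Doublets were not removed from the members, and Scrublet (scanpy 1.11.5), at an expected rate of 0.8% per 1000 cells, served as an alternative. Python packages were numpy 2.4.6, scipy 1.17.1, pandas 2.3.3 and matplotlib 3.10.9. The size rule was tried on simulated Poisson counts in which some genes were changed by known folds. The simulation had no variation between cells, so it does not bear on calls that rest on 1 cell. Alternatives covered the member threshold, added lineage exclusions, scaling, the added CPM, the eligibility minimum, state weighting, depth and thinning. Promoters come from RefSeq (GRCm38.p6).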

Additional observations from a re-analysis of the deposited data

Results flagged for a closer look

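In 7 genes the haplodeficient to control ratio passed the size rule in opposite directions in a pair of states. The difference was not tested for any of them. Iigp1 had log2 ratios of -1.08 in contractile and 1.22 in low-Myh11 cells, and in the latter 51 of 63 control UMIs lay in 1 cell. The other 6 genes differed between contractile and renin cells. Mal had 1.30 and -6.46, with 45 of 47 control renin UMIs in 1 cell. Wfdc2 had 1.14 and -5.47, with 80 of 80 in 1 cell. Ly6a had 1.34 and -7.63, with 85 of 107 in 1 cell. H2-Ab1 had -1.46 and 2.86, with 31 of 37 haplodeficient renin UMIs in 1 cell. H2-Aa had -1.26 and 4.79, with 47 of 55 in 1 cell. Cd74 had -1.55 and 2.70, with 126 of 135 in 1 cell.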

How the results depend on the processing

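No paired analysis was possible because each group had 1 library, so no replicate could be left out either. Alternatives that left out Krt8-positive cells or the largest cell of each gene, or kept contractile cells alone or members of at most 10000 UMIs, were added after seeing the data. The contractile share difference of 15.3 percentage points became 5.95 without UMIs of 8 further lineage genes and 1.94 after thinning. The low-Myh11 difference of -15.1 points became -4.92 without the lineage genes, -7.94 without Krt8-positive cells and -1.90 after thinning.

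The count of genes higher in haplodeficient members, 85, became 25 without the lineage genes, 52 when members needed 2 UMIs of other mural genes, 15 without Krt8, 53 with 20 CPM added, 209 with the eligibility minimum at 10, 16 with states weighted alike, 12 as the mean over cells, 20 in contractile cells and 15 at most 10000 UMIs. The count lower, 232, became 27 without the lineage genes, 54 without Krt8, 598 with the minimum at 10, 128 with states weighted alike, 90 as the mean over cells, 138 in contractile cells and 43 at most 10000 UMIs. Between states, 286 higher became 52 without the lineage genes and 99 without Krt8, and 242 lower became 16 and 41.

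Some list medians changed sign. Without the lineage genes the contractile apparatus was at -0.04, the pericyte list at -0.05 and chemokines at 0.18. Without Krt8 the pericyte list was at -0.10 and chemokines at 0.24. At most 10000 UMIs the matrix list was at -0.33 and chemokines at 0.16, and with a member threshold of 5 UMIs the matrix list was at -0.04. Klk1 was at 0.02 in contractile cells. Of the other list medians 35 moved out of the median counting bounds of their genes and 110 stayed within them. Median-of-ratios scaling shifted all genes by -0.03 log2. The cause of these changes was not tested beyond the construction of each alternative.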
